A study of Mus musculus with 18 samples.

Results

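The Hox cluster genes were described in RNA sequencing of mouse induced pluripotent stem cells (iPSCs) and of the epiblast-like cells (EpiLCs) that form when iPSCs leave the naïve state. The members were all genes whose symbol is Hox followed by a cluster letter from a to d and a paralogue number, which gave 39 genes of the 45706 in the count table. Of these, 11 belonged to cluster a, 10 to cluster b, 9 to cluster c and 9 to cluster d. Paralogue groups 1 to 3 (anterior) held 8 genes, groups 4 to 8 (central) 15 genes and groups 9 to 13 (posterior) 16 genes. The study compared wt cells from 1 clone with the Hmga2 knockout clones KO#1 and KO#2, each before induction (0 h) and after 24 h, with 3 biological replicates in each of the 6 groups. How the knockout was made is not given in the sources used here. At 0 h the iPSCs were on inactivated fibroblast feeders, in medium with leukaemia inhibitory factor and inhibitors of MEK and GSK3. For induction they were plated without feeders on a basement membrane matrix, with Activin A and bFGF. Time and the feeder layer therefore changed together and cannot be told apart by the design.

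Hox genes encode homeodomain transcription factors that give cells of the embryo their position along the head-to-tail axis. Genes at the 3' end of each cluster (low paralogue numbers) are used first and most anteriorly, and genes at the 5' end are used later and more posteriorly, a relation known as collinearity. In pluripotent cells the clusters are known to be held silent by Polycomb complexes, while fibroblasts keep expressing Hox genes according to the body site they came from.

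All 39 members are named in the GENCODE M21 annotation of GRCm38. Cluster a lies on the minus strand at chr6:52155590-52260880. The other clusters lie on the plus strand, cluster b at chr11:96194316-96368256, cluster c at chr15:102921103-103036852 and cluster d at chr2:74668310-74765142. The exons of 23 members overlap no other gene. Those of 9 members overlap a gene on the same strand and those of 10 a gene on the opposite strand, so part of their counts could be shared with a neighbour. Whether strand was used in the counting is not given in the sources used here. Among the genes described here, the exons of Hoxa7 overlap the antisense RNA Hoxaas3, while Hoxd8 lies within the span of antisense Hoxd3os1 without sharing exons with it.

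The bases before a RefSeq start of transcription are shown for 3 genes that fell during induction and, as a contrast, for Hoxa10. Hoxa10 was not called in any comparison as fitted here (library sizes alone called it higher in KO#2 than in wt at 24 h). Each run holds the 250 bases before the RefSeq start in GRCm38.p6, written 5' to 3' on the strand of the gene, with every CG dinucleotide in capitals. RefSeq promoters were at hand for 24 starts of 22 Hox genes. The runs are from chr6:52260881-52261130 (minus strand) for Hoxa13, chr2:74697513-74697762 (plus strand) for Hoxd9, chr15:103034145-103034394 (plus strand) for Hoxc4 and chr6:52240855-52241104 (minus strand) for Hoxa10. The Hoxc4 run lies inside the GENCODE span of the gene (chr15:103018934-103036852), so its RefSeq start is an internal one. The Hoxd9 run ends past the GENCODE start of that gene (74697727).
Hoxa13: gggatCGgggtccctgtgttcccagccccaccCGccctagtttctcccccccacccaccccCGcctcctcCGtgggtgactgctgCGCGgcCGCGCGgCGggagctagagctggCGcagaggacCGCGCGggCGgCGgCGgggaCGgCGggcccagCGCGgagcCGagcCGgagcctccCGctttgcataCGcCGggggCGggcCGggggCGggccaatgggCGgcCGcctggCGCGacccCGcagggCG
Hoxd9: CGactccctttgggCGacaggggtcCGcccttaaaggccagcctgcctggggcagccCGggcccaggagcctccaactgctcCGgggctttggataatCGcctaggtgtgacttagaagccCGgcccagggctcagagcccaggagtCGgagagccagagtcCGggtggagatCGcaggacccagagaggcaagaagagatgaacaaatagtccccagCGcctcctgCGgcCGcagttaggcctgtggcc
Hoxc4: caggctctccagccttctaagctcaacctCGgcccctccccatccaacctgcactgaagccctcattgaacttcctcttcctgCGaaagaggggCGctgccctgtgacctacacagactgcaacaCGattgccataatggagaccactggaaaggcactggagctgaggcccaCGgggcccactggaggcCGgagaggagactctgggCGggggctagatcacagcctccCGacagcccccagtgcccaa
Hoxa10: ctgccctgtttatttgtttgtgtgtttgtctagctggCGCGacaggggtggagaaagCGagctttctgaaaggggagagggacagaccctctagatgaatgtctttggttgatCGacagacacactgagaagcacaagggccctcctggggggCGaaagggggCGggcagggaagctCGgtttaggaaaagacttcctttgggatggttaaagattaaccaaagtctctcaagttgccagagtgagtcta
The CG dinucleotide occurred 35 times before Hoxa13, 13 times before Hoxd9, 8 times before Hoxc4 and 7 times before Hoxa10. Hoxa10 has another RefSeq start, whose promoter (chr6:52234940-52235189) holds 20 CG, more than those of Hoxd9 and Hoxc4. The 24 Hox promoters held a median of 12.5 CG, with a range of 2 to 35, and all 32851 promoters of the same length a median of 6 with quartiles of 2 and 16. The letters GGGCGG, read on both strands, were found in 10 of the 24 Hox promoters (41.7%) and in 32.7% of all promoters. The letters CCAAT, read on both strands, were found in 14 of 24 (58.3%) against 33.9% of all, and TATAAA, also on both strands, in 4 of 24 (16.7%) against 12.4%. Some genes have more than 1 promoter, so these shares are a description.

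Total counts per library ran from 3466436 to 23872837. A count of 3, taken as the smallest level read as detected, equalled 0.116 to 0.984 CPM, with the highest value in wt 0 h replicate 1. CPM are counts relative to the size of the library, here its total multiplied by its TMM factor. The share of counts in protein-coding genes was 54.4% ± 11.4 (SD, n = 3) in wt and 51.6% ± 10.9 in KO#1 at 24 h, and 83.1% ± 1.33 in the libraries labelled KO#2. Hmga2, the targeted gene, was at 17.4, 13.3 and 22.4 CPM in wt at 0 h, at 10.2, 4.59 and 1.75 CPM in KO#1 and at 4.10, 1.84 and 8.25 CPM in KO#2. At 24 h it was at 5.87, 5.51 and 5.93 CPM in wt, 3.67, 2.25 and 0.871 CPM in KO#1 and 10.5, 3.02 and 3.48 CPM in the libraries labelled KO#2. Hmga2 was called lower than in wt only in KO#2 at 0 h (log2 fold change -1.90, adjusted p = 0.0230, edgeR quasi-likelihood test, Benjamini-Hochberg over all genes). KO#2 at 24 h did not differ detectably from wt in Hmga2 by the same test (log2 fold change -0.04, adjusted p = 0.966). Its replicate 1 lay above every wt library of 24 h, and its replicates 2 and 3 lay below them. The RNA level as tested here therefore does not set these libraries apart as knockouts. The paper's own check is a western blot for Hmga2 protein in wt and KO cells, which RNA counts do not address. All 3 lines raised 7 of 8 formative epiblast markers (Fgf5, Otx2 and Dnmt3b among them). Of 8 pluripotent markers, each line lowered 3 (Sox2, Nanog and Esrrb) and raised 1 (Utf1). Against wt at 24 h, the edgeR test called 4 formative markers lower in KO#1 (Dnmt3a, Pou3f1, Sox3 and Lef1). In KO#2 it called 2 lower (Pou3f1 and Sox3). Nanog and Zfp42 were called higher in both clones, and in KO#2 Sox2 was higher and Pou5f1 lower. The change over 24 h did not differ detectably from wt for any of these markers in either clone.

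Hox RNA was low in every library. The highest value of any member in any library was 7.25 CPM, reached by Hoxc13 in wt at 0 h, and 25 of the 39 members stayed at or below 1 CPM in all 18 libraries. No member was at 0 counts throughout. With at least 3 counts in every library of a group taken as detected, 7 members were detected in wt at 0 h, 14 in KO#1 and 23 in KO#2, where total counts were 3466436 to 10599720 in wt, 4531798 to 14613617 in KO#1 and 14495941 to 16995756 in KO#2. At 24 h, 4 members were detected in wt, Hoxa7 and Hoxd13 among them, 6 in KO#1 and 15 in KO#2. At the level of the shallowest library (0.984 CPM), 4, 8 and 4 members were detected at 0 h in wt, KO#1 and KO#2, and 0, 0 and 1 at 24 h.

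**Figure D1:**
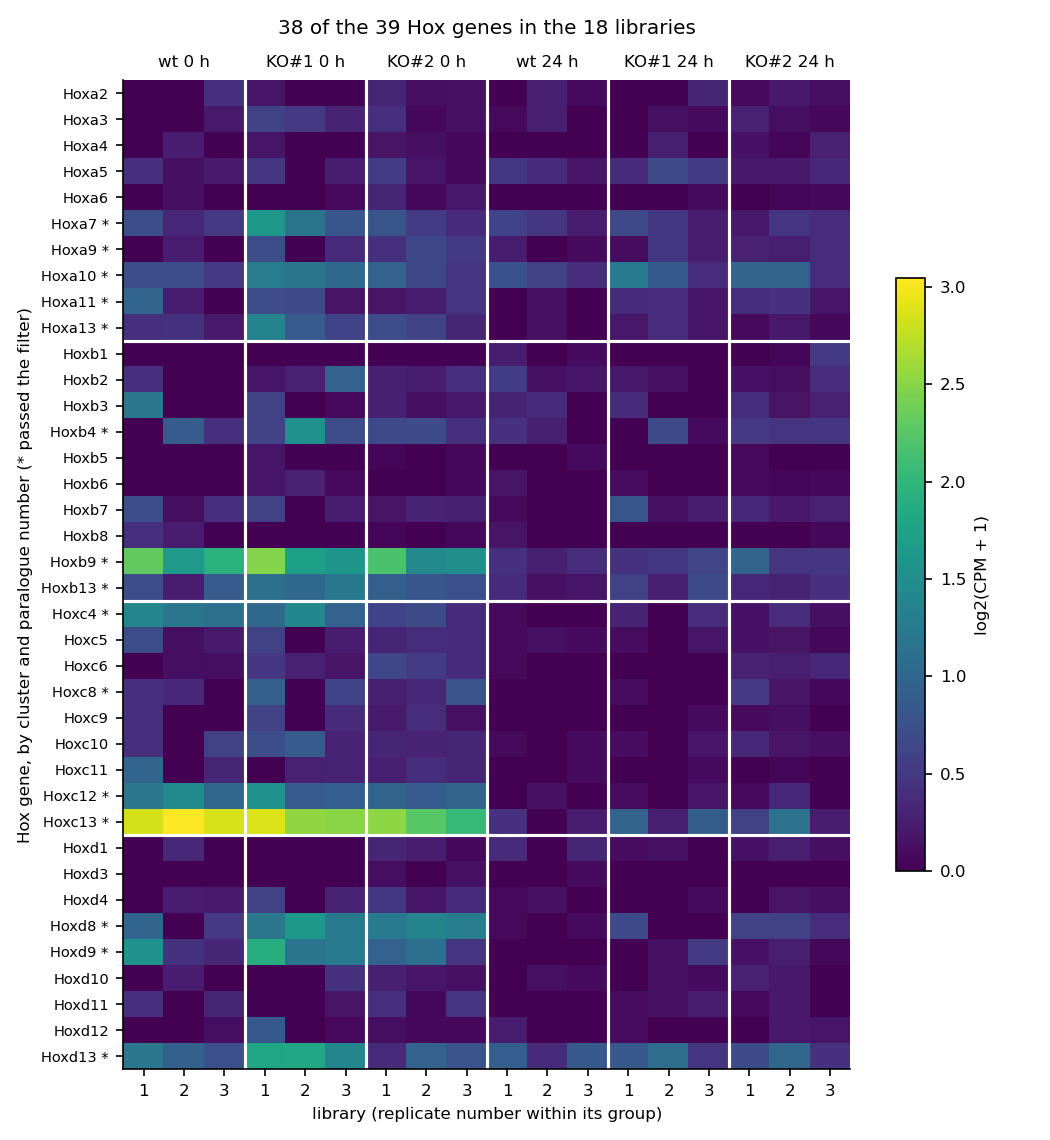
Level of 38 of the 39 Hox genes (rows, by cluster and paralogue number) in each of the 18 libraries (columns, by group), as log2(CPM + 1), with a star at the 15 of them that passed the filter on low counts. Most cells are near 0, and the strongest band is Hoxc13 in the 9 libraries of 0 h.

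Summed over the 39 members, Hox RNA in wt was at 28.5, 19.0 and 19.2 CPM at 0 h and at 7.28, 4.01 and 3.34 CPM at 24 h. In KO#1 the sum was 37.4, 25.7 and 23.8 CPM at 0 h and 9.19, 7.87 and 6.72 CPM at 24 h. In KO#2 it was 24.1, 19.4 and 16.7 CPM at 0 h and 9.04, 11.1 and 7.13 CPM at 24 h. In each line the 3 libraries of 24 h lay below the 3 of 0 h. In bulk RNA, fewer cells of a type and less RNA per cell cannot be told apart. The group means of member genes were lower at 24 h for 29 of 39 members in wt, 29 in KO#1 and 30 in KO#2, where 37.9%, 38.9% and 50.6% of all 29079 genes with a count were lower. These counts include genes with a few reads and describe direction only.

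The posterior genes had the largest part of the sum at 0 h in each line. Their summed level in wt was 19.4, 14.1 and 13.5 CPM at 0 h and 2.99, 1.5 and 1.98 CPM at 24 h. The anterior genes summed to 2.41 ± 1.21 CPM (SD, n = 3) at 0 h and 1.56 ± 0.782 CPM at 24 h in wt, and these groups overlapped. The central genes summed to 4.17 ± 1.24 CPM and 1.16 ± 0.693 CPM. In KO#1 the posterior sum went from 19.1 ± 5.62 to 4.39 ± 0.405 CPM, and in KO#2 from 12.3 ± 2.17 to 4.22 ± 1.73 CPM.

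**Figure D2:**
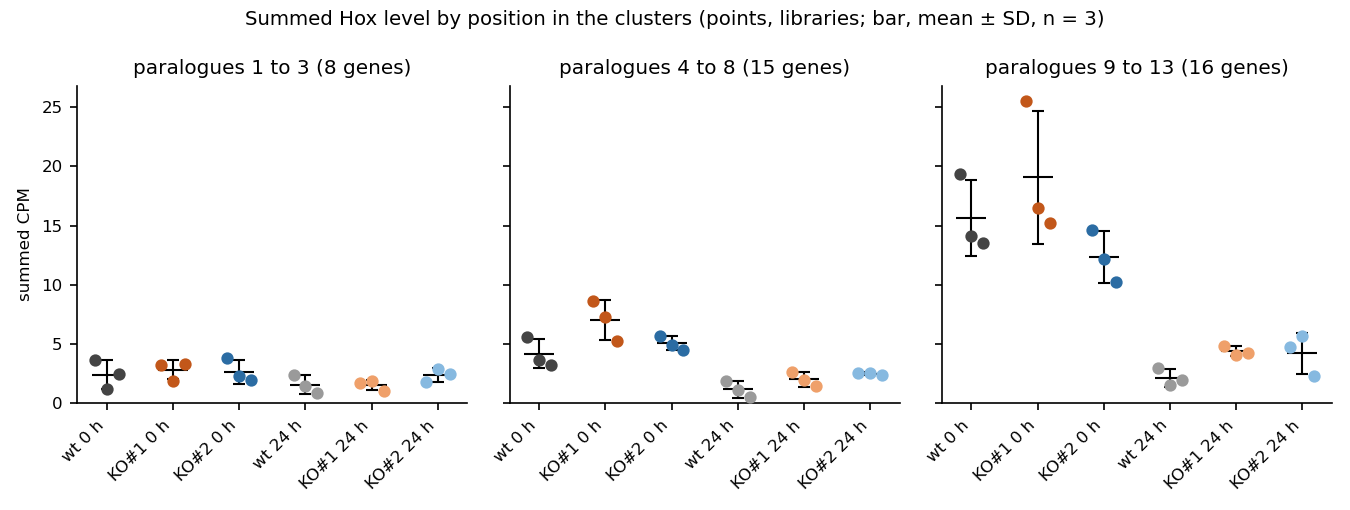
Summed CPM (vertical axis) of the 8 anterior, 15 central and 16 posterior Hox genes in each group, with points for libraries and bars for the mean and SD of 3 libraries. The posterior sum is the largest at 0 h in each line, and at 24 h its libraries lie below those of 0 h.

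Of the clusters, c had the highest mean sum at 0 h and the lowest at 24 h in each line, with libraries that overlapped those of cluster a at 0 h in KO#1 and KO#2 and at 24 h those of cluster d in each line and of cluster b in KO#1 and KO#2. In KO#1 at 0 h, cluster c lay between 8.06 and 12.4 CPM and cluster a between 5.25 and 9.51 CPM, and in KO#2 they lay between 6.24 and 7.88 CPM and between 3.26 and 6.66 CPM. Without Hoxc13, an alternative added after seeing the data, cluster c summed to 4.08 ± 1.31 CPM (SD, n = 3) in wt, 4.38 ± 1.41 CPM in KO#1 and 3.21 ± 0.144 CPM in KO#2 at 0 h, and no longer had the highest mean in any line. Its 9 genes summed to 11.8, 10.7 and 9.43 CPM in wt at 0 h and to 0.587, 0.20 and 0.371 CPM at 24 h. Cluster c summed to 1.12 ± 0.798 CPM (SD, n = 3) in KO#1 and 1.62 ± 0.876 CPM in KO#2 at 24 h. Cluster a summed to 4.92, 2.94 and 3.59 CPM in wt at 0 h and 3.05, 2.40 and 1.05 CPM at 24 h, which overlap. Hoxc13 alone took 30.9% ± 8.30 (SD, n = 3) of the Hox sum in wt at 0 h, 18.5% ± 1.31 in KO#1 and 19.3% ± 0.551 in KO#2. Divided by exon length, as CPM per kb, wt levels at 0 h were led by Hoxc13 at 2.67 ± 0.237, then Hoxc12 at 1.31 ± 0.362 and Hoxb9 at 1.15 ± 0.357. The ranges of Hoxc12 and Hoxb9 overlapped, while that of Hoxc13 lay above both. At 24 h, Hoxd13 was at 0.266 ± 0.127 CPM per kb in wt, 0.309 ± 0.152 in KO#1 and 0.266 ± 0.133 in KO#2, and these ranges overlapped.

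The first comparison asked what 24 h of induction did to Hox RNA in wt cells. Of the 39 members, 6 fell and 0 rose (15.4% of members lower, where 24.7% of all 16619 genes tested were called lower, 26.0% higher and 50.7% in either direction). Calls here and later rest on the quasi-likelihood test of edgeR at a Benjamini-Hochberg adjusted p under 0.05, adjusted over every gene tested. Only 16 of the members passed the filter on low counts, and passing it through a group where a member was high favours a call. These shares also have unlike denominators, so they are not compared. With no filter, where all 39 members entered the fit, 5 were called lower (12.8%) beside 13.6% of all 29079 genes, a share near the background. When libraries were scaled by their totals and not by TMM, 11 members were called lower, beside 35.2% of all genes lower and 9.55% higher. By class, 5 of the 10 posterior genes tested fell (Hoxa13, Hoxb9, Hoxc12, Hoxc13 and Hoxd9), 1 of the 5 central genes tested (Hoxc4) and 0 of the 1 anterior gene tested.

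Hoxc13, needed for hair and nail formation, lies at the 5' end of cluster c (chr15:102921103-102928814). It was at 6.23, 7.25 and 6.26 CPM in wt at 0 h and at 0.352, 0 and 0.185 CPM at 24 h. Every library of 0 h was above every library of 24 h. The log2 fold change was -4.98 (SE 0.68, adjusted p = 1.9e-05), and the pooled counts were 32.0-fold lower at 24 h (95% exact interval 16.5 to 71.2, which covers counting error only). Without wt 24 h replicate 1 the log2 fold change was -5.81.

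Hoxc12, the neighbour of Hoxc13 (chr15:102936757-102938609), was at 1.31, 1.74 and 1.00 CPM in wt at 0 h and at 0, 0.100 and 0 CPM at 24 h. With 1 count in all at 24 h, the pooled counts were 58.3-fold lower (interval 9.80 to 2369, adjusted p = 0.00039). Hoxc4 (chr15:103018934-103036852), which helps to pattern the neck and upper trunk, was at 1.64, 1.28 and 1.17 CPM at 0 h and at 0.0587, 0 and 0 CPM at 24 h. Its pooled counts, again against 1 count, were 55.0-fold lower (interval 9.21 to 2237, adjusted p = 0.000153). For both genes the groups did not overlap.

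Hoxb9 (chr11:96271457-96276595), a gene of thoracic patterning, was at 3.94, 2.11 and 2.84 CPM in wt at 0 h and at 0.352, 0.20 and 0.309 CPM at 24 h. It fell by 3.23 on the log2 scale (SE 0.54, adjusted p = 0.000133), 8.85-fold in pooled counts (interval 4.85 to 17.4). Hoxd9 (chr2:74697727-74700208), a gene of trunk and limb patterning, was at 1.97, 0.367 and 0.250 CPM at 0 h and at 0 counts in all 3 libraries of 24 h, at least 3.91-fold lower against a floor of 3 counts per library (adjusted p = 0.00505). Its highest value came from wt 0 h replicate 1, the shallowest library, without which the bound was 1.4-fold. Hoxa13 (chr6:52257694-52260880), needed for digits and the genital tubercle, was at 0.328, 0.367 and 0.167 CPM at 0 h and at 0, 0.100 and 0 CPM at 24 h (adjusted p = 0.0261). Both groups of Hoxa13 were at or near the floor, so no fold is given, and the call was lost without wt 0 h replicate 2, without wt 24 h replicate 1, without wt 24 h replicate 3 and with no filter (adjusted p over 12 alternatives 0.00990 to 0.104).

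**Figure D3:**
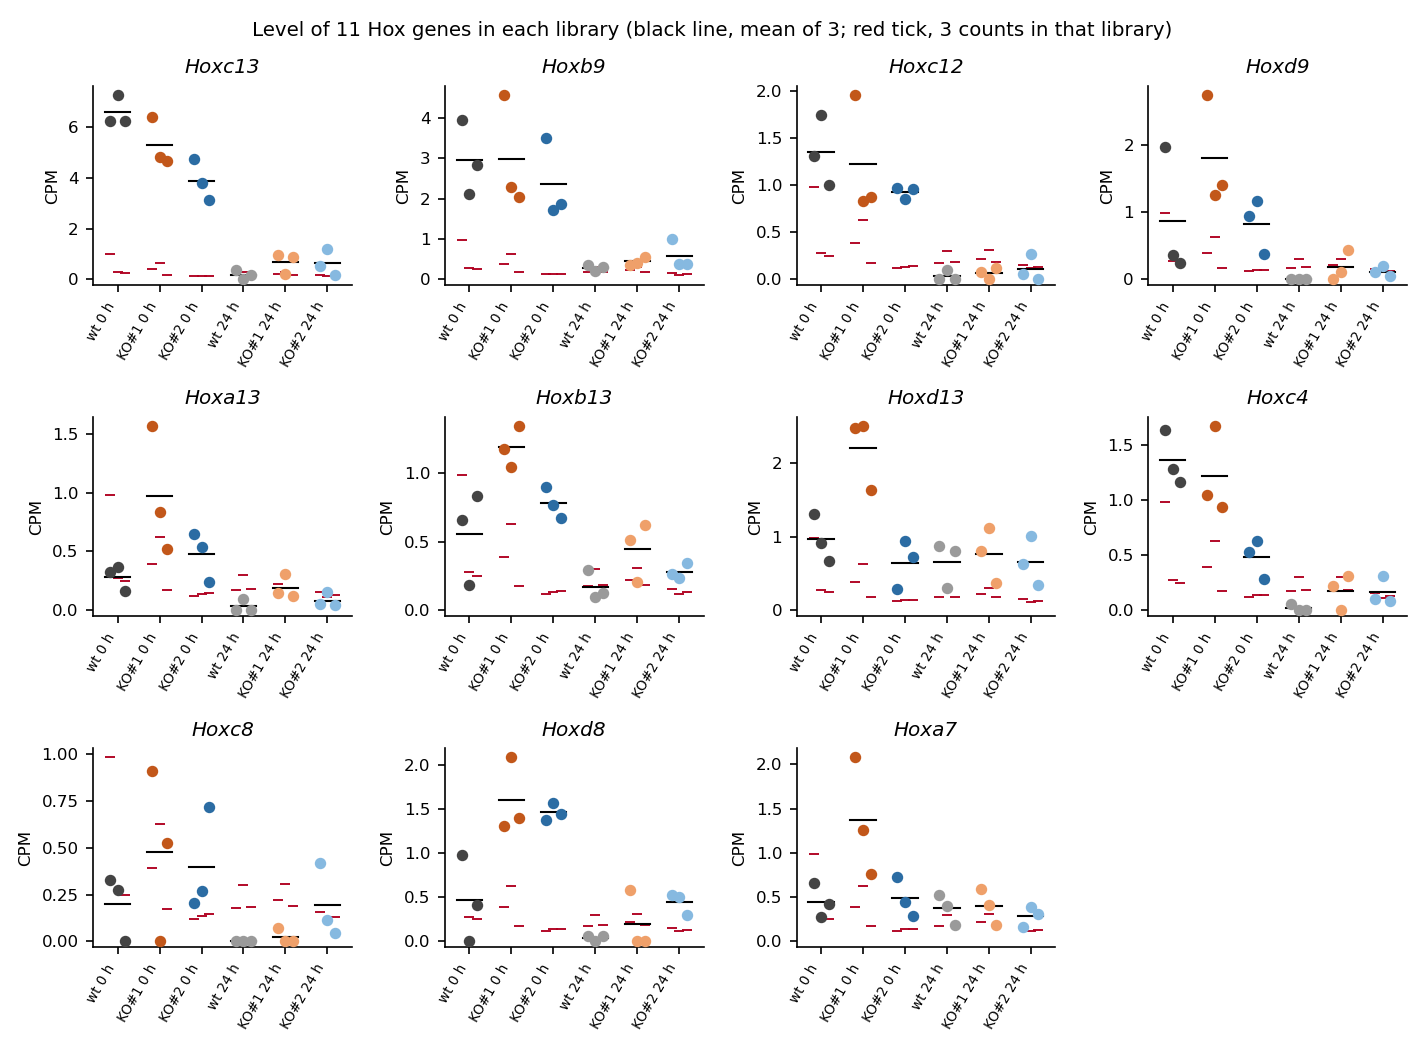
CPM (vertical axis) of 11 Hox genes in each of the 18 libraries (points) by line and time, with a line at the mean of each group and a red tick at the 3-count floor. Hoxc13, Hoxc12, Hoxc4 and Hoxb9 lie higher at 0 h than at 24 h in every wt library, while the wt points of Hoxd13 overlap between times.

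Among the 12 feeder fibroblast markers, which include the collagen genes Col1a1, Col1a2 and Col3a1, wt libraries summed to 396, 256 and 116 CPM at 0 h and to 38.8, 23.5 and 31.8 CPM at 24 h. The test called 8 of the 12 lower at 24 h in wt and 1 higher (Dcn, at 0 counts in all wt libraries of 0 h). In KO#1 the counts were 8 lower and 1 higher, and in KO#2 5 lower and 0 higher, where 24.7%, 20.6% and 13.3% of all genes tested were called lower in wt, KO#1 and KO#2. Across the 9 libraries of 0 h the marker sum ranged 8.04-fold, from 116 to 933 CPM, while the Hox sum lay between 16.7 and 37.4 CPM and Hoxc13 between 3.12 and 7.25 CPM. In KO#1 at 0 h, marker sums of 529, 390 and 194 CPM went with Hox sums of 37.4, 25.7 and 23.8 CPM, in the same order. In wt at 0 h, the library with the most marker RNA (396 CPM) also had the highest Hox sum (28.5 CPM). This was replicate 1, the shallowest library. In wt replicates 2 and 3, marker sums of 256 and 116 CPM went with Hox sums of 19.0 and 19.2 CPM. In KO#2 at 0 h, marker sums of 380, 347 and 933 CPM went with Hox sums of 24.1, 19.4 and 16.7 CPM, so the library with the most marker RNA of the 9 had the lowest Hox sum and the lowest Hoxc13. At 24 h the mean marker sums of wt, KO#1 and KO#2 were 31.4, 46.6 and 146 CPM and the mean Hox sums 4.87, 7.93 and 9.09 CPM, in the same order. Within wt and within KO#1 at 24 h, the library with the most marker RNA had the highest Hox sum. Within KO#2 at 24 h, marker sums of 231, 78.6 and 128 CPM went with Hox sums of 9.04, 11.1 and 7.13 CPM. There the library with the least marker RNA had the highest Hox sum. In each line the mean marker sum and the mean Hox sum were both lower at 24 h than at 0 h, and the part of feeder RNA in the Hox change was not tested.

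**Figure D4:**
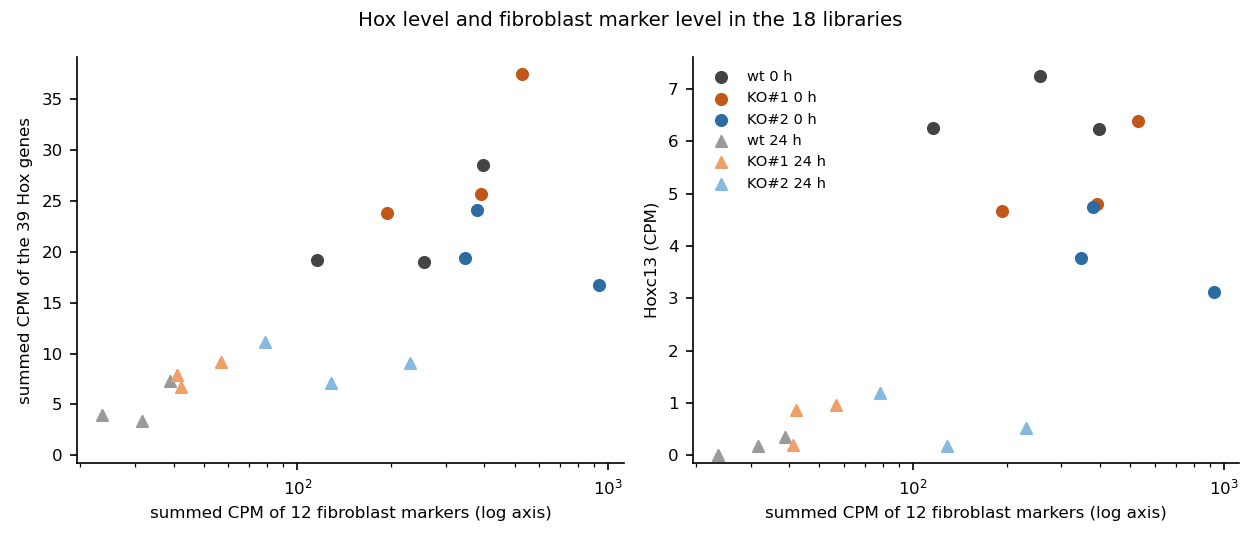
Summed CPM of the 39 Hox genes and CPM of Hoxc13 (vertical axes) against the summed CPM of 12 fibroblast markers (horizontal axis, log scale), 1 point per library, by line and time. Libraries of 0 h spread from 116 to 933 on the horizontal axis, where the one at 933 has the lowest Hox sum of that time. In wt and KO#1 at 0 h the library with the most marker RNA has the highest Hox sum. In wt that library is the shallowest.

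The same comparison was made in KO#1. In KO#1, 11 of the 39 members fell and 0 rose (28.2% of members lower, where 20.6% of all genes tested were called lower, 20.1% higher and 40.8% in either direction). These were the posterior genes Hoxa13, Hoxb9, Hoxb13, Hoxc12, Hoxc13, Hoxd9 and Hoxd13 and the central genes Hoxa7, Hoxc4, Hoxc8 and Hoxd8. With no filter, 10 of the 39 were called lower (25.6%) beside 11.5% of all genes. Hoxc13 was at 6.39, 4.80 and 4.67 CPM at 0 h and at 0.955, 0.204 and 0.871 CPM at 24 h (log2 fold change -2.89, SE 0.58, adjusted p = 0.00101). Hoxc12 was at 1.96, 0.835 and 0.876 CPM at 0 h and at 0.0735, 0 and 0.124 CPM at 24 h, 15.1-fold lower in pooled counts (interval 4.75 to 76.9, adjusted p = 0.00254), and leaving out 24 h replicate 3 moved its log2 fold change from -3.89 to -4.62. Hoxb9 was at 4.56, 2.30 and 2.04 CPM at 0 h and at 0.367, 0.409 and 0.560 CPM at 24 h (log2 fold change -2.69, SE 0.52, adjusted p = 0.000689). All 3 genes had 0 h libraries that lay above every 24 h library.

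Hoxc4 in KO#1 was at 1.04, 1.67 and 0.934 CPM at 0 h and at 0.221, 0 and 0.311 CPM at 24 h (log2 fold change -2.54, SE 0.70, adjusted p = 0.00826). Hoxd9 was at 2.74, 1.25 and 1.40 CPM at 0 h and at 0, 0.102 and 0.436 CPM at 24 h (log2 fold change -3.16, SE 0.88, adjusted p = 0.00988). Hoxa13 was at 1.56, 0.835 and 0.525 CPM at 0 h and at 0.147, 0.307 and 0.124 CPM at 24 h (log2 fold change -2.32, SE 0.72, adjusted p = 0.0168). The groups did not overlap for any of these genes. Without 24 h replicate 3, which held most of the Hoxd9 reads of 24 h, the log2 fold change was -5.14 for Hoxd9, and it was -3.17 for Hoxc4.

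Hoxd8 (chr2:74704615-74707933), a trunk gene of cluster d, was at 1.30, 2.09 and 1.40 CPM in KO#1 at 0 h and at 0.588, 0 and 0 CPM at 24 h, so its 24 h reads came from replicate 1 alone (log2 fold change -2.90, SE 0.89, adjusted p = 0.0157). Without 24 h replicate 1 the log2 fold change of Hoxd8 was -7.61, and without 24 h replicate 3 it was -2.26. Hoxa7, which also acts in the trunk, was at 2.09, 1.25 and 0.759 CPM at 0 h and at 0.588, 0.409 and 0.187 CPM at 24 h (log2 fold change -1.75, SE 0.60, adjusted p = 0.0272). Hoxd13 (chr2:74668310-74671599), which patterns the digits with Hoxa13, was at 2.48, 2.51 and 1.63 CPM at 0 h and at 0.808, 1.12 and 0.373 CPM at 24 h (log2 fold change -1.52, SE 0.56, adjusted p = 0.0362). For these 3 genes the 24 h libraries were all below those of 0 h.

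Hoxb13 (chr11:96194316-96197447), a gene of the tail end and the prostate, was at 1.17, 1.04 and 1.34 CPM in KO#1 at 0 h and at 0.514, 0.204 and 0.622 CPM at 24 h (log2 fold change -1.36, SE 0.53, adjusted p = 0.0485). Hoxc8 (chr15:102990607-102994111, within the span of Hoxc5), which specifies brachial motor neurons, was at 0.912, 0 and 0.525 CPM at 0 h and at 0.0735, 0 and 0 CPM at 24 h. The groups of Hoxc8 overlapped, and its counts at 24 h came to 1 read (pooled ratio 21.3, interval 3.32 to 895, adjusted p = 0.0288). Leaving out KO#1 0 h replicate 1 brought the number of members called down to 7, and fitting only the groups compared, where 13 members were tested and Hoxc8 was not, also gave 7. Several calls rested on single libraries of KO#1. Without 0 h replicate 1, Hoxa7, Hoxa13, Hoxb13, Hoxc8 and Hoxd13 were not called, and the 7 called were 6 of the 11 and Hoxc6. Hoxb13 lost its call without any of the libraries but 24 h replicate 3 (adjusted p up to 0.16). The call of Hoxa7 was also lost without 24 h replicate 2 or 3 (up to 0.167), that of Hoxa13 without 24 h replicate 1 or 3 (up to 0.114) and that of Hoxd8 without 24 h replicate 2 or 3 (up to 0.0551). Hoxc8 was not called without 0 h replicate 3 or 24 h replicate 2 or 3, and Hoxd13 not without 0 h replicate 2 or 24 h replicate 1 or 3 (adjusted p up to 0.131). With no filter, Hoxa7, Hoxb13 and Hoxd13 were not called, and DESeq2 did not call Hoxb13.

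In the libraries labelled KO#2, 6 members fell over the 24 h and 0 rose (15.4% of members lower, where 13.3% of all genes tested were called lower, 12.7% higher and 26.0% in either direction). All 6 were among the 10 posterior genes of the 16 tested, and the central gene Hoxd8 was called lower with no filter and in a fit of only the groups compared. With no filter, 7 of the 39 were called lower (17.9%) beside 8.21% of all genes, and 1 was called higher (Hoxb1, at 0 counts at 0 h and at 11 counts at 24 h, 10 of them in 1 library) beside 7.54%. Hoxc13 was at 4.75, 3.78 and 3.12 CPM at 0 h and at 0.523, 1.20 and 0.174 CPM at 24 h (log2 fold change -2.58, SE 0.55, adjusted p = 0.00232). Hoxb9 was at 3.49, 1.71 and 1.87 CPM at 0 h and at 0.993, 0.387 and 0.391 CPM at 24 h (log2 fold change -2.01, SE 0.46, adjusted p = 0.00403). Hoxc12 was at 0.975, 0.854 and 0.959 CPM at 0 h and at 0.0523, 0.271 and 0 CPM at 24 h (log2 fold change -2.94, SE 0.74, adjusted p = 0.00683). Without 24 h replicate 2, which held most of its reads of that time, the log2 fold change of Hoxc12 was -4.85, and that of Hoxc13 was -3.48. For Hoxc13, Hoxb9 and Hoxc12, the 0 h libraries were all higher.

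Hoxd9 in KO#2 was at 0.934, 1.17 and 0.384 CPM at 0 h and at 0.104, 0.194 and 0.0434 CPM at 24 h (log2 fold change -2.76, SE 0.86, adjusted p = 0.0259). Hoxa13 was at 0.650, 0.540 and 0.240 CPM at 0 h and at 0.0523, 0.155 and 0.0434 CPM at 24 h (log2 fold change -2.36, SE 0.71, adjusted p = 0.0194). Hoxb13 was at 0.894, 0.764 and 0.671 CPM at 0 h and at 0.261, 0.232 and 0.347 CPM at 24 h (log2 fold change -1.45, SE 0.51, adjusted p = 0.0445). The groups did not overlap for the 3 genes. Without 24 h replicate 2 the log2 fold change was -3.38 for Hoxd9 and -3.12 for Hoxa13. The number called was 3 (Hoxb9, Hoxc12 and Hoxc13) without KO#2 0 h replicate 1, without KO#2 0 h replicate 2, without KO#2 24 h replicate 1 and without KO#2 24 h replicate 3. Hoxb13 in KO#2 lost its call without any 1 of the 6 libraries (adjusted p up to 0.139), with DESeq2, with no filter and with library sizes alone.

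**Figure D5:**
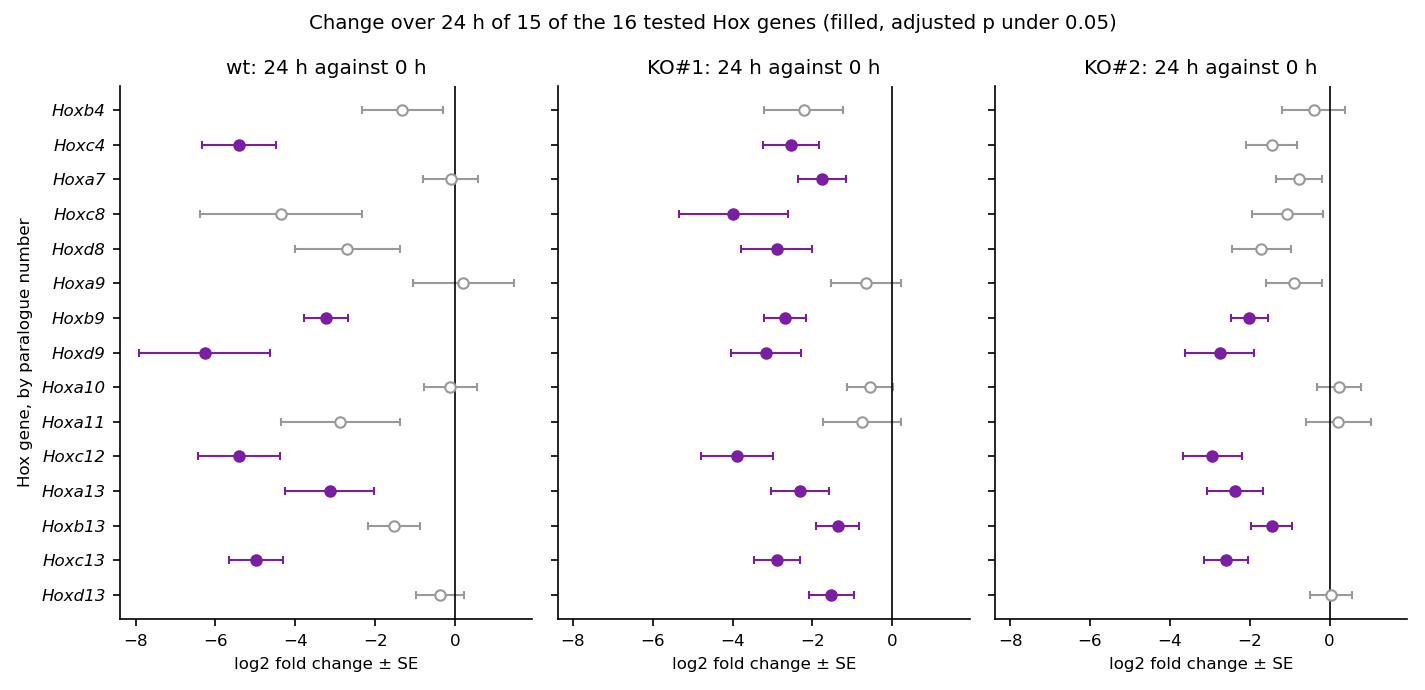
Log2 fold change from 0 h to 24 h with its SE (horizontal axis) of 15 of the 16 tested Hox genes in wt, KO#1 and KO#2, with filled points at an adjusted p under 0.05. The called points all lie below 0, and the fitted values of genes with 0 or 1 count at 24 h, such as Hoxd9, Hoxc4 and Hoxc12 in wt, depend on the prior count.

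Hoxa13, Hoxb9, Hoxc12, Hoxc13 and Hoxd9 were called lower in all 3 lines, and each line's change was measured against its own 0 h libraries. Hoxa10, named after its values were seen and known for its part in the uterus and lumbar spine, was at 0.656, 0.643 and 0.417 CPM in wt at 0 h and 0.704, 0.501 and 0.309 CPM at 24 h. Hoxd13 was at 1.31, 0.918 and 0.667 CPM in wt at 0 h and at 0.880, 0.301 and 0.803 CPM at 24 h. In KO#2 Hoxd13 was at 0.284, 0.944 and 0.719 CPM at 0 h and at 0.627, 1.01 and 0.347 CPM at 24 h. The 0 h and 24 h groups overlapped for all of these values.

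Some genes were called over time in KO#1 and not in wt or KO#2, or in wt and KO#1 and not in KO#2. Hoxc4 in KO#2 was at 0.528, 0.630 and 0.288 CPM at 0 h and at 0.104, 0.310 and 0.0869 CPM at 24 h, with overlap. Hoxd8 was at 0.984, 0 and 0.417 CPM in wt at 0 h, with 1 library at 0, and at 0.0587, 0 and 0.0618 CPM at 24 h. In KO#2 Hoxd8 was at 1.38, 1.57 and 1.44 CPM at 0 h and at 0.523, 0.503 and 0.304 CPM at 24 h, without overlap. It was not called there in the fit of all groups with the filter. Hoxa7 was at 0.656, 0.275 and 0.417 CPM in wt at 0 h and 0.528, 0.401 and 0.185 CPM at 24 h. It was at 0.731, 0.450 and 0.288 CPM in KO#2 at 0 h and at 0.157, 0.387 and 0.304 CPM at 24 h, and both pairs of groups overlapped. Hoxb13 in wt was at 0.656, 0.184 and 0.834 CPM at 0 h and at 0.293, 0.100 and 0.123 CPM at 24 h, with overlap. Hoxc8 was at 0.328, 0.275 and 0 CPM in wt at 0 h and at 0 counts in all 3 libraries at 24 h. In KO#2 Hoxc8 was at 0.203, 0.270 and 0.719 CPM at 0 h and at 0.418, 0.116 and 0.0434 CPM at 24 h. Both groups of Hoxc8 in wt were at or under the floor of 3 counts, so no fold is given.

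Each clone was next compared with wt at 0 h, with the same 3 wt libraries in both comparisons. By the quasi-likelihood test of edgeR 0 members were called in KO#1, where 6.67% of all genes tested were called, and 4 had an unadjusted p under 0.05 (Hoxa7, Hoxa13, Hoxd8 and Hoxd13, all with higher means), while DESeq2 called 0 (9.12% of its genes). In KO#2 0 members were called, where 38.1% of all genes were called. There, 3 had an unadjusted p under 0.05 (Hoxa9 and Hoxd8 with higher means, Hoxc4 with a lower one), and DESeq2 called 1, Hoxc4, lower (41.6% of its genes). Genes with an unadjusted p under 0.05 were named after their values were seen. Hoxc4 was at 0.528, 0.630 and 0.288 CPM in KO#2 against 1.64, 1.28 and 1.17 CPM in wt, without overlap. The edgeR test called Hoxd8 higher with no filter (22% of all genes called), Hoxa9 and Hoxd8 higher with library sizes alone (33.1%), and Hoxd8 higher and Hoxc4 lower in a fit of only the groups compared (40.0%). Of the 12 fibroblast markers, 6 were called higher in KO#2 at 0 h.

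At 24 h, again with shared wt libraries, 0 members were called in KO#1 by the quasi-likelihood test of edgeR, where 9.86% of all genes were called. Of the members, 6 had an unadjusted p under 0.05 (Hoxa11, Hoxa13, Hoxb13, Hoxc4, Hoxc13 and Hoxd9, all with higher means), and DESeq2 called 0 (12.8% of its genes). In KO#2, 1 member was called, Hoxd8, which was higher (21.3% of all genes tested were called higher and 37.3% in either direction). In all, 7 members had an unadjusted p under 0.05, and DESeq2 called 2 (Hoxc13 and Hoxd8, 40.5% of its genes). Hoxd8 was at 0.523, 0.503 and 0.304 CPM in KO#2 and at 0.0587, 0 and 0.0618 CPM in wt, where the 3 libraries held 2 counts in all. The groups did not overlap, and the pooled wt level was 0.105 of that in KO#2 (interval 0.0122 to 0.413, adjusted p = 0.0413). Without wt 24 h replicate 1, 2 or 3, or without KO#2 24 h replicate 1 or 2, the call was lost (adjusted p from 0.00225 to 0.107 over 12 alternatives). A fit of only the groups compared, whose filter kept 2 members and not Hoxd8, called 0 (41.5% of all genes called). Library sizes alone called 12 members higher (61.4%), and no filter called 3, Hoxc8, Hoxc13 and Hoxd8 (22%). In the same comparison, 8 of the 12 fibroblast markers were higher in KO#2, whose marker sums were 231, 78.6 and 128 CPM, and the protein-coding share was higher. With protein-coding genes alone, an alternative added after seeing the data, Hoxd8 was still called. The part of the fibroblast markers in this difference was not tested.

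Whether the 24 h change itself differed between a KO clone and wt was tested as an interaction. For KO#1, 0 members were called, where 0.391% of all genes were called, 2 had an unadjusted p under 0.05 (Hoxc4 and Hoxc13), and DESeq2 called 0 (1.66% of its genes). For KO#2, the quasi-likelihood test of edgeR also called 0 members (1.47% of all genes tested were called) and 2 had an unadjusted p under 0.05. These were again Hoxc4 and Hoxc13, which are named after their values were seen. DESeq2 called 1, Hoxc13 (8.48% of its genes). The adjusted p in edgeR was 0.0875 for Hoxc4 and 0.127 for Hoxc13 in KO#2, and 0.430 and 0.421 in KO#1. For KO#2, the edgeR test called Hoxc13 with no filter (5.90% of all genes called) and Hoxc4 with library sizes alone (4.82%).

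The Hox proteins act together with the cofactors of the Pbx, Meis and Pknox families. Of the 9 cofactors, 0 rose and 1 fell in wt (Pknox2, log2 fold change -3.0, SE 0.48, adjusted p = 9.5e-05). In KO#1 1 rose and 2 fell, among them Meis1 (log2 fold change 1.91, SE 0.44, adjusted p = 0.00258) and Pknox2 (-3.66). In KO#2 3 rose, Pbx2 and Meis1 among them, and 1 fell (Pknox2). The median change of the cofactors was 0.07 in wt, 0.19 in KO#1 and 0.08 in KO#2 on the log2 scale, beside 0.03, 0.00 and -0.03 over all tested genes. Called in either direction were 11.1%, 33.3% and 44.4% of the cofactors, beside 50.7%, 40.8% and 26.0% of all tested genes.

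Of 11 genes known to act upstream of the Hox clusters, 4 rose and 3 fell in wt, 1 rose and 3 fell in KO#1, and 4 rose and 1 fell in KO#2, with median log2 changes of 0.55, -0.19 and 0.52 beside 0.03, 0.00 and -0.03 over all tested genes. These are 63.6%, 36.4% and 45.5% of the list, beside 50.7%, 40.8% and 26.0% of all genes. Cdx1, a homeobox activator of central Hox genes, fell by 4.88 (SE 0.63) in wt, by 2.24 in KO#1 and by 4.03 in KO#2 on the log2 scale. Of the other Cdx genes listed, Cdx4 was called higher in wt and KO#2, and Cdx2 was not called in any line. Cdx4 was at 0 counts in all wt libraries of 0 h. The retinoic acid receptor gene Rarg rose by 2.51, 2.79 and 2.92 on the log2 scale. Kmt2a, which encodes a histone H3 lysine methyltransferase that maintains Hox expression, fell by 2.77 in wt and by 2.69 in KO#1. It was not called in KO#2 (log2 fold change -0.62, adjusted p = 0.469), and the difference between the wt and KO#2 responses of Kmt2a had an adjusted p of 0.145.

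The Polycomb complexes were represented by 15 genes. In wt 1 rose and 3 fell, in KO#1 2 rose and 4 fell, and in KO#2 2 rose and 1 fell, with median log2 changes of -0.26, -0.16 and 0.07. The share called, 26.7%, 40.0% and 20.0%, was not above the 50.7%, 40.8% and 26.0% of all tested genes in any line. Phf19, which recruits Polycomb repressive complex PRC2, rose in all 3 lines (log2 fold changes of 1.60, 2.61 and 2.38). Of 25 genes that neighbour or lie within the clusters, 6 were tested, of which 2 rose and 2 fell in wt, 0 changed in KO#1, and 1 rose and 1 fell in KO#2 (66.7%, 0% and 33.3% of the tested neighbours, beside 50.7%, 40.8% and 26.0% of all genes). The rest, such as the long noncoding RNA Hotair, were at too few counts to test. The lists hold few genes, and their counts are given as a description.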

How the data were processed

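RNA sequencing counts of 18 libraries were analysed, in 6 groups of 3 assigned from the sample titles. The authors deposited whole-number counts of reads per gene, not normalized. By the paper's methods, stranded total RNA libraries were read as paired ends, trimmed (Trim Galore), cleared of ribosomal reads by software, aligned to GRCm38 (STAR) and quantified (Salmon and StringTie are named) before DESeq2. The annotation release and the use of strand are not given in the sources used here. Positions came from GENCODE M21, which holds 45143 of 45706 identifiers, and promoters from RefSeq.

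In R 4.3.3 with edgeR 4.0.16, genes passing filterByExpr (minimum count 10) by group were kept, leaving 16619 genes, of which 16 were Hox genes. One quasi-likelihood model with TMM factors was fitted to all libraries, and Benjamini-Hochberg adjustment ran over all genes tested. The SE of a log2 fold change is its size divided by the square root of F. DESeq2 1.42.0 was an alternative. The functions were tested on simulated data. Pooled ratios have exact 95% intervals. The named genes were all Hox genes called in at least 1 comparison (at most 14) and the highest member of each cluster. The members, gene lists and rules were chosen with earlier results of these data known. Alternatives were other normalization, filters, test and samples, a replicate block, and leaving out each replicate. Same-numbered libraries deviated together in every pair only for KO#1 against wt at 24 h (correlations 0.480, 0.223 and 0.587). Results for a few genes are not reported here. The replicates are labelled biological, and p-values measure the spread between them. Python 3.11.15 with pandas 2.3.3 and matplotlib 3.10.9 read the annotation and drew figures.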

Additional observations from a re-analysis of the deposited data

How the results depend on the processing

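Beside each number of members called stands the share of all tested genes called under the same setting. With library sizes alone, 11 members were called, all lower, in wt over time (44.7%, 35.2% lower), 2 (33.1%) and 12 (61.4%) in KO#2 against wt at 0 h and 24 h, and 1 (4.82%) in the response difference of KO#2, and the median of all genes moved from 0.20 to 1.24 (log2) for KO#2 against wt at 24 h. With no filter the counts were 1 (22%) for KO#2 against wt at 0 h, 1 (6.87%) and 3 (22%) for KO#1 and KO#2 against wt at 24 h, and 1 (5.90%) for the response difference of KO#2. With only the groups compared they were 4 of 6 tested in wt (57.4%), 7 of 13 in KO#1 (37.0%) and 5 of 8 in KO#2 (28.1%) over time, 2 of 10 (40.0%) for KO#2 against wt at 0 h and 0 of 2 (41.5%) at 24 h. The filter of that fit left out Hoxa13 and Hoxd9 over time in wt and KO#2, Hoxc8 in KO#1 and Hoxd8 for KO#2 against wt at 24 h, which were thus not tested there. DESeq2 gave 1 (41.6%), 2 (40.5%) and 1 (8.48%) for KO#2 against wt at 0 h, at 24 h and in the response difference. The cause was not tested. Leaving out 1 replicate gave 5 to 8 in wt (39.4% to 46.9%), 7 to 11 in KO#1 (26.4% to 41.3%) and 3 to 5 in KO#2 (14.8% to 23.8%) over time, 0 to 1 (25.8% to 32.5%) and 0 to 3 (26.5% to 35.0%) for KO#2 against wt at 0 h and 24 h, and 0 to 0 in the rest. With the replicate block the counts were 7 in wt (52.0%), 12 in KO#1 (41.7%) and 6 in KO#2 (27.2%) over time, 1 for KO#2 against wt at 24 h (38.7%) and 0 elsewhere, so the block changed no call where the numbers pair the samples. The filter of 10 counts in every library left 9709 genes and 0 Hox genes, and gave no value. Of the fold changes of called genes, 0 reversed under any alternative run. Genes past the threshold under all 12 alternatives run for fold changes, which did not include the fit of only the groups compared, were Hoxb9, Hoxc12 and Hoxc13 in each line, and Hoxc4 and Hoxd9 in wt and KO#1. With 3 counts equal to up to 0.984 CPM, depth limits what can be said of most members.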
